A study of Mus musculus with 2 samples.

Results

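Cytochrome P450 genes were examined as a family in DNase-seq of left cerebral cortex from B6CASTF1/J mice, all male. They were taken as the autosomal protein-coding genes of GENCODE M21 whose symbol starts with Cyp and a digit, which gave 100 of 20807 autosomal protein-coding genes. The family number in the symbol put 78 of them in families 2 to 4, 19 in families 7 and above and 3 in family 1. DNase-seq sequences the ends that DNase I cuts in exposed DNA of nuclei, so that a peak marks a stretch of accessible chromatin. The animals, hybrids of a C57BL/6 and a castaneus parent obtained from The Jackson Laboratory, were 8 to 10 months old and carried no labelled treatment. There were 2 libraries, replicates 1 and 2, in 1 group. Their labels give the same donor identifier with different biosample identifiers, so the spread between them may leave out variation between animals.

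P450 enzymes are heme proteins that use oxygen to oxidise their substrates. As background, families 1 to 4 act largely on foreign compounds, fatty acids and eicosanoids and are best known from liver, gut, kidney and lung. Many of their genes lie in long tandem arrays of close copies. Families 7 and above are mostly single genes that make or break down sterols, bile acids, steroid hormones, vitamin D and retinoic acid. The brain keeps its own cholesterol pool, and CYP46A1, the neuronal cholesterol hydroxylase, turns it into an oxysterol that can cross the blood-brain barrier.

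Replicates 1 and 2 held 40705 and 39508 peaks in the stricter of the deposited lists and 71210 and 72217 in the broader one, beside 166128 and 174394 footprints, short stretches where bound protein is taken to shield exposed DNA from the enzyme. Each peak carries a strength, a deposited signal value whose normalization is not given in the sources used here; its median over the stricter list was 1.22 and 1.15. A promoter peak here is a peak that touches 1 kb on either side of any annotated transcript start of a gene, and unless stated it comes from the stricter list. Among cell type markers, Camk2a, Tbr1 and Neurod6 of excitatory neurons and 2 of 5 genes of astrocytes (Gfap, Slc1a2) had one in both libraries, beside 56.0% of all genes, and Slc17a7 and Slc17a6 of excitatory neurons had none. Inhibitory neurons had 0 of 4 in both, with Gad2 and Slc32a1 each in 1 library. Autosomal markers of oligodendrocytes had 0 of 4 in both, with Olig2 (0.853) and Mbp (0.938) in replicate 1. Microglia had 0 of 4, endothelium 0 of 4 and hepatocytes 0 of 6. With the broader list, 3 of 4 inhibitory and 2 of 4 oligodendrocyte markers had one in both libraries, against 0 of 4 for microglia and for endothelium. Markers of adrenal and gonad gave 2 of 4 (Star, Nr5a1) and of gut 1 of 4 (Lgr5). In bulk tissue, accessibility in few cells and weak accessibility in many cannot be told apart.

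Of the 100 P450 genes, 21 had a promoter peak in each library, where the share over all autosomal protein-coding genes was 56.0%. With the broader list the count was 26, against 62.0% of all genes. Counting peaks anywhere in a window of the gene plus 10-kb flanks, 35 P450 genes had at least 1 in both libraries, against 71.9% of all genes, and 44 had one in the broader list, against 78.2%. The counts differed by family. Families 7 and above had a promoter peak in 8 of 19 genes (42.1%), families 2 to 4 in 11 of 78 (14.1%) and family 1 in 2 of 3. Many of the 78 genes are close copies in a few arrays, so they are not 78 separate cases.

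Every member falls into 1 of 4 classes. Beside the 21 genes with a promoter peak in both libraries, 21 had a stricter-list peak only elsewhere in the window, or at the promoter in 1 library: Cyp11a1, Cyp21a1, Cyp26a1, Cyp26b1, Cyp27b1, Cyp2ab1, Cyp2b19, Cyp2c23, Cyp2d22, Cyp2f2, Cyp2j13, Cyp2s1, Cyp2t4, Cyp3a13, Cyp4b1, Cyp4f14, Cyp4f17, Cyp4f18, Cyp4f39, Cyp4f40 and Cyp8b1. Another 4 had peaks of the broader list alone (Cyp26c1, Cyp2d11, Cyp2j12, Cyp3a57). The remaining 54 had no peak in any list in either library, and 49 of them belong to families 2 to 4. Over all autosomal protein-coding genes, 3780 of 20807 had no broader-list peak in the window of either library. For 48 members the deposited table of false discovery rates lists no interval at all over the gene and its flanks in either library. The share of all genes without such an interval was not computed.

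**Figure D1:**
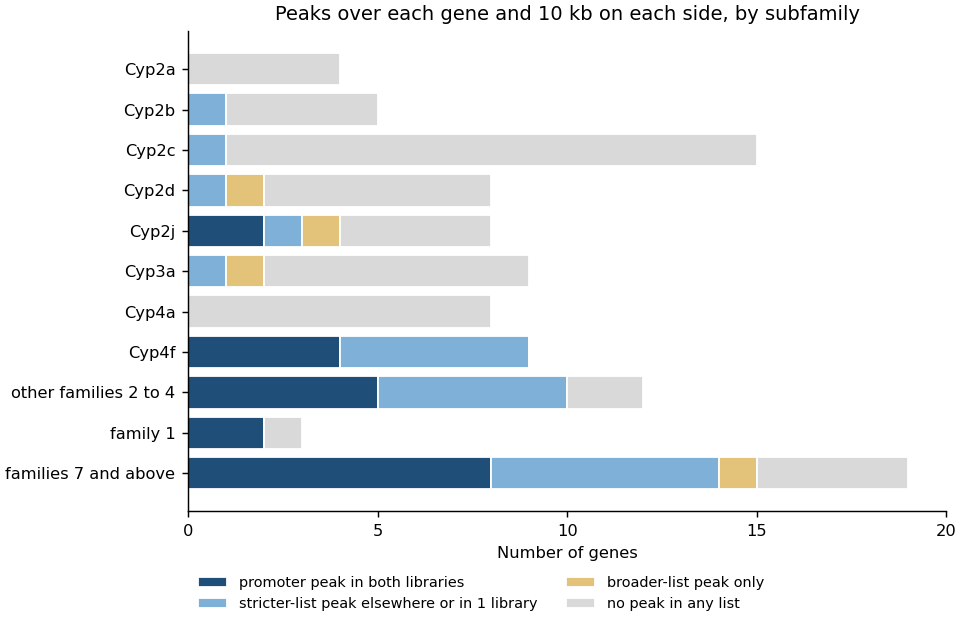
Number of P450 genes (x axis) in each subfamily or family group (y axis) by the peaks in the gene plus 10-kb flanks. Cyp2c, with 14 of 15 genes in grey, and Cyp4a, with 8 of 8, have almost no peaks, while all 9 Cyp4f genes have at least 1 stricter-list peak.

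Over the 21 genes, promoter strength ran from 0.616 (median 1.35) to 6.99 in replicate 1 and from 0.593 (median 1.5) to 5.66 in replicate 2. The medians over all genes with a promoter peak in both libraries were 2.80 and 2.44, and 15 of the 21 P450 genes lay below them in both libraries. Strength was higher in replicate 1 for 7 genes and in replicate 2 for 14, and the ratio of replicate 2 to replicate 1 ran from 0.673 to 1.43.

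**Figure D2:**
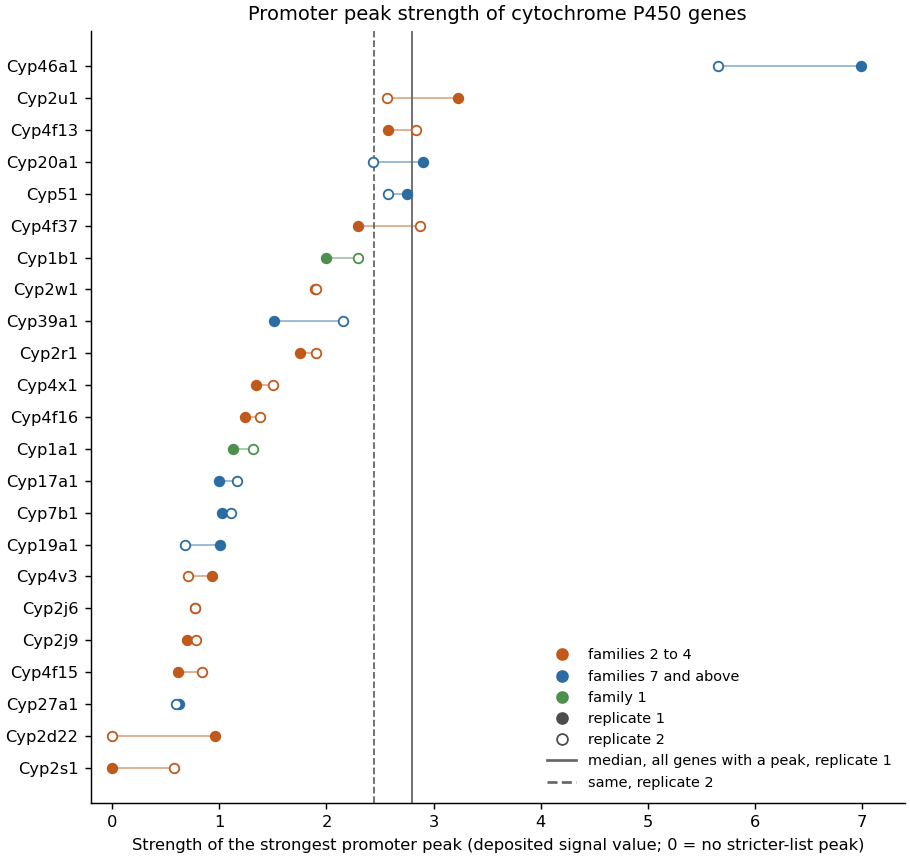
Strength of the strongest promoter peak (x axis, deposited signal value) for each P450 gene with one in at least 1 library (y axis, ordered by mean); filled and open points are replicates 1 and 2. Cyp46a1, at 6.99 and 5.66, stands far to the right of every other member and of the medians of all genes (vertical lines).

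Cyp46a1 had the strongest promoter peak of the family. It lies at chr12:108334381-108362234 (mm10, plus strand), and its peak covered chr12:108333981-108334200 in replicate 1 and chr12:108333961-108334360 in replicate 2, just upstream of the gene. Strength was 6.99 and 5.66, or 6.33 ± 0.946 (SD, n = 2), above 98.3% and 97.1% of the promoters that had a peak in both libraries. The next member in order, Cyp2u1, reached 3.23 and 2.56, so the values of the 2 genes did not overlap.

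The promoter of Cyp46a1 is shown because it carries both the highest strength and the highest CpG ratio of the family; it spans chr12:108334066-108334365 on the plus strand (RefSeq, GRCm38.p6), and capitals mark its 31 CG dinucleotides. The window centred on the replicate 1 peak, chr12:108333941-108334240 of the reference genome, follows, with capitals on the 4 stretches that footprints of both libraries share.
Cyp46a1 promoter: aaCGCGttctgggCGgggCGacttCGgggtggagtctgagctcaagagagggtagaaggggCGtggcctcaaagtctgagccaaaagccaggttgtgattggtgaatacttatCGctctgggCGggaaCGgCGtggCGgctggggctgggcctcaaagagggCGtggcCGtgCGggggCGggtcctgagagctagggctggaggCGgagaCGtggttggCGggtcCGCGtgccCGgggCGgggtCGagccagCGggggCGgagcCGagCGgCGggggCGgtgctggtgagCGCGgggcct
Cyp46a1 peak window: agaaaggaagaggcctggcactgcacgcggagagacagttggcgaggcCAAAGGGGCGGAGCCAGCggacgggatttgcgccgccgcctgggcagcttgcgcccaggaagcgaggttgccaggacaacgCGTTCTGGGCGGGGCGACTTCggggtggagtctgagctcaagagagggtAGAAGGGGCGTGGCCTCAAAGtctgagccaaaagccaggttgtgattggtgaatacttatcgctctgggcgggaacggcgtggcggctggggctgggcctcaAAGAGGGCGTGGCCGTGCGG
The peak window holds 3 matches to the GC box GGGCGG, counted on both strands, a motif present at least once in 36.1% of all 300-bp windows centred on a replicate 1 peak. Replicates 1 and 2 held 8 and 11 footprints in promoter windows of Cyp46a1, of which 6 of the 8 overlapped one of replicate 2.

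Beyond its promoter, Cyp46a1 had shared peaks on both sides. A first lay 1.18 kb upstream of the 5' end, with strengths of 2.36 and 1.81. Another lay 29.6 kb from the 5' end, past the end of the 27.9-kb gene, with strengths of 2.58 and 2.69. A further shared peak 6.37 kb upstream, at 1.72 in replicate 1, lies within 1 kb of a start of the noncoding gene 4930478K11Rik. In all, 5 stricter-list peaks lay over the gene and its flanks in each library, the most of any member in the library where it had fewer. None of these lay inside the gene. The broader list had a peak inside it near the 5' end, at 0.550 in replicate 1 and 0.704 in replicate 2. It also had intronic peaks of up to 0.758 in replicate 1 alone.

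Cyp51 encodes lanosterol demethylase, a step of cholesterol synthesis. Its promoter peak (gene at chr5:4081145-4104746, minus strand) had strengths of 2.75 and 2.57, 2.66 ± 0.124 (SD, n = 2), above 48.7% and 53.9% of promoters with a peak in both libraries. All 3 of its peaks in each library lay within 1 kb of a start, with no other stricter-list peak over the gene or its flanks. The promoter, chr5:4104648-4104947 on the minus strand, is shown as a second CpG-rich example with 28 CG dinucleotides in capitals.
Cyp51 promoter: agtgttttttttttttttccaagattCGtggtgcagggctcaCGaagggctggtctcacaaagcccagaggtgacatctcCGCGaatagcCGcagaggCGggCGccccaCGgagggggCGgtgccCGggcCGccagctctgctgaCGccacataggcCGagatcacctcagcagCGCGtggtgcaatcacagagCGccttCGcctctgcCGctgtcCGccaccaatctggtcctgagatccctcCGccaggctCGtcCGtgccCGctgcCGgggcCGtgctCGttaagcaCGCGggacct
It has no match to the sterol response element searched here, TCACNCCAC on either strand, which occurred in 1.26% of all promoters and in those of 2 members, Cyp2b10 and Cyp2a4. No match says only that these letters are not in the 300 bases searched.

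Cyp7b1, an oxysterol hydroxylase on the way to bile acids, had promoter strengths of 1.02 and 1.11, 1.07 ± 0.0618 (SD, n = 2). Its 2 peaks in each library lay at the start, and no stricter-list peak lay elsewhere in the 171-kb gene. Cyp39a1, which hydroxylates the product of CYP46A1, had strengths of 1.51 and 2.16 at a promoter peak that it shares with the neighbouring gene Slc25a27. It was the only one of the 21 members (4.76%) whose promoter peak also touched the start window of another protein-coding gene, against 22.8% of all genes with a promoter peak. Inside Cyp39a1, 2 shared intronic peaks lay 32.04 kb and 33.8 kb from the 5' end, the first at 1.73 and 1.76 and the second at 1.04 and 1.34. Cyp27a1, the mitochondrial sterol hydroxylase, had one of the weakest promoter peaks, at 0.626 and 0.593. Cyp7a1, the rate-limiting enzyme of bile acid synthesis in liver, had no peak in any list, and Cyp8b1, which sets the kind of bile acid made there, had 1 stricter-list peak in replicate 2 alone, near the start of Ackr2.

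CYP26 enzymes degrade retinoic acid. None of the 3 genes had a stricter-list promoter peak. Cyp26b1, the form best known from brain, had broader-list ones in replicate 2 alone. The strongest of these, at 0.648, lay over an internal transcript start, 6358 bp from the gene's 5' end. Instead, the strongest peak of Cyp26b1 lay in an intron 3.43 kb from its 5' end, at chr6:84590401-84590560 in replicate 1 and chr6:84590401-84590620 in replicate 2, with strengths of 2.62 and 2.16. Both libraries thus placed a peak with the same left edge inside the gene. Neither had one of that strength within 1 kb of any of its 5 annotated starts. A further intronic site 10.3 kb from the 5' end was in the stricter list in replicate 2 (1.05) and in the broader list in replicate 1 (1.16). Counts over the gene and flanks were 1 and 4 in the stricter list and 2 and 8 in the broader list, so replicate 2 held more of the listed sites of this gene than replicate 1.

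The intronic peak window of Cyp26b1, chr6:84590331-84590630 in the reference genome, is given on the minus strand, with capitals on the stretch where footprints of the 2 libraries overlap.
Cyp26b1 intronic peak window: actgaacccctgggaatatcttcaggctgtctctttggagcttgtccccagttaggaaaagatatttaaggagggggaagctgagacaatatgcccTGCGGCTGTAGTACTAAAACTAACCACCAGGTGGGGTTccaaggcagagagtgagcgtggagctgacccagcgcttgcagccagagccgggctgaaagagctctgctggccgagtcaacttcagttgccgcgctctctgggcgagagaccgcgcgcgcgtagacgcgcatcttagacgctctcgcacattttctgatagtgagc
None of the retinoic acid response elements searched, in their strict direct-repeat forms, occurred in it. The direct repeat with 5 bases between its repeats occurred in 2 of 20807 promoters, and one of these was Cyp26a1, a gene known to be induced by retinoic acid. Cyp26a1 is CpG-rich and yet had no promoter peak in any list; its promoter, chr19:37697558-37697857 on the plus strand, has 26 CG dinucleotides, in capitals.
Cyp26a1 promoter: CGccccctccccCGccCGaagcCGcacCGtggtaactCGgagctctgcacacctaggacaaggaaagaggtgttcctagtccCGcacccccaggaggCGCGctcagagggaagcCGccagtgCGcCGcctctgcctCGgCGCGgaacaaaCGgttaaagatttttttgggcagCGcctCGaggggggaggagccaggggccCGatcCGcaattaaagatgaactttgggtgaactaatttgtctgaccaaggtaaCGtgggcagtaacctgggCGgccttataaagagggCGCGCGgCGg
Its shared stricter-list peak lay 6.30 kb from the 5' end, past the end of the gene, at 1.28 and 1.90. Cyp26c1 had only a broader-list peak, in replicate 2.

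**Figure D3:**
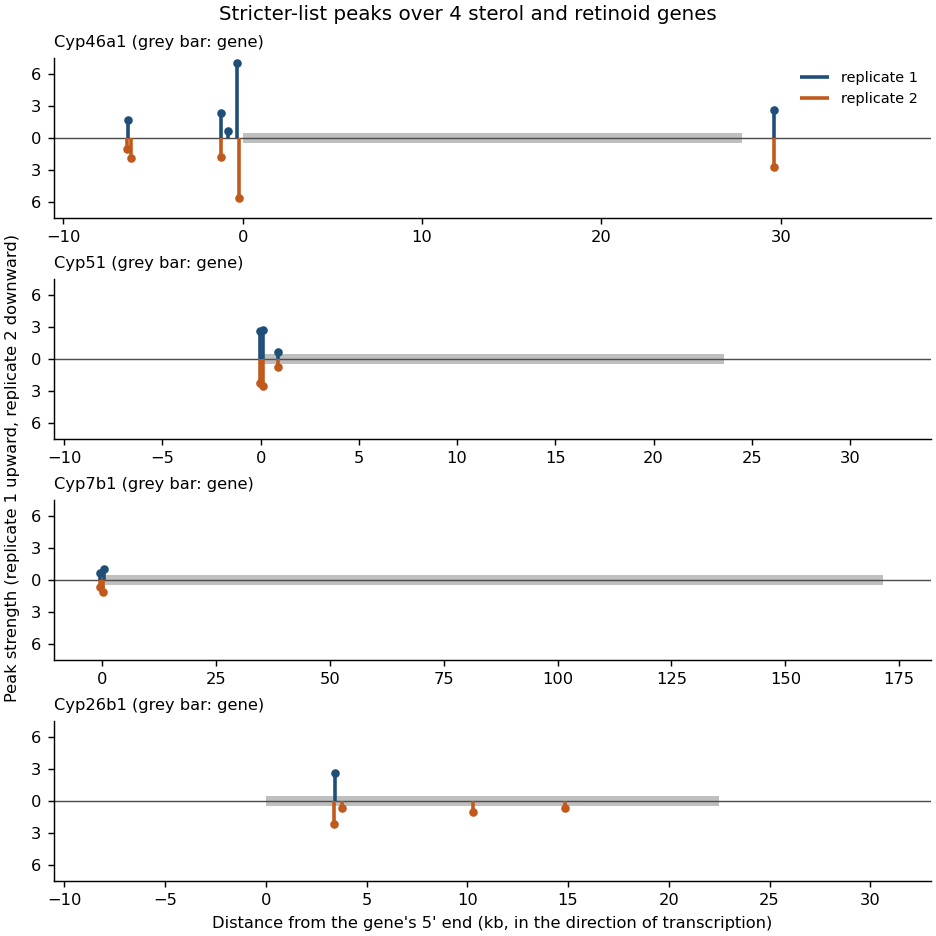
Stricter-list peaks by distance from the 5' end (x axis, kb) and strength (y axis, replicate 1 upward and replicate 2 downward) over Cyp46a1, Cyp51, Cyp7b1 and Cyp26b1 with 10-kb flanks; grey bars are the genes. Peaks of Cyp51 and Cyp7b1 cluster at the start, those of Cyp46a1 flank the gene, and the strongest of Cyp26b1 sits 3.43 kb inside it.

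Among the steroid hormone enzymes, Cyp19a1 (aromatase, which makes estrogens) and Cyp17a1 (on the way to androgens) were counted as having a promoter peak, but not at their 5' ends. Peaks of Cyp19a1, at 1.00 and 0.676, lay 86.6 kb into the 102-kb gene, 593 and 563 bp past an internal transcript start. Those of Cyp17a1, at 0.995 and 1.17, lay 2.30 and 2.26 kb into the gene. Cyp21a1, the steroid hydroxylase of the adrenal cortex, had a shared peak beyond its 3' end at 0.862 and 1.14 and none at its start, Cyp11a1, which starts steroid synthesis from cholesterol, had 1 peak in replicate 1 alone, and Cyp11b1 and Cyp11b2 had no peak in any list. Of the vitamin D enzymes, Cyp24a1, which inactivates the hormone, had no peak in any list although its promoter is CpG-rich. Cyp27b1, which activates it, had 1 shared peak at 3.18 and 3.18, but this lies at the starts of Eef1akmt3 and Mettl1. Cyp20a1, whose substrate is not established, had a peak over its start at 2.90 and 2.43.

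Family 1 is known for its induction through the aryl hydrocarbon receptor. Cyp1b1 had promoter strengths of 2.00 and 2.30, and Cyp1a1 of 1.13 and 1.31, while Cyp1a2 had no peak in any list. The peak of Cyp1a1 lay far from the 5' end of the longest transcript, in its intron, and its centre was 1062 and 1032 bp upstream of the nearest annotated start. It therefore counted through its edge alone, and neither it nor that of Cyp1b1 counted with a 500-bp promoter. Its window, chr9:57696401-57696700 on the plus strand, is shown because it holds 3 matches, in capitals, to the dioxin response core TNGCGTG on either strand.
Cyp1a1 peak window: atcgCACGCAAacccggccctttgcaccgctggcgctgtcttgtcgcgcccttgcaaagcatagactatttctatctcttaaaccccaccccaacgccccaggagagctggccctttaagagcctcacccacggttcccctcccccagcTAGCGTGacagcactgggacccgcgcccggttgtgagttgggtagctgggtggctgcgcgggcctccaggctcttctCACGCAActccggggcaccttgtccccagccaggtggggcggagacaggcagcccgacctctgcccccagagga
That motif occurred in 6.77% of all 300-bp peak windows and, among the 21 members, also once each in those of Cyp7b1 and Cyp2j9. In promoters at the gene's own 5' end it occurred in Cyp1a1 and Cyp2c68 (5.92% of all promoters). A match describes letters and not binding.

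In families 2 to 4, 12 genes are the only autosomal member of their subfamily, and 5 of these 12 had a promoter peak in both libraries. Cyp2u1, a fatty acid hydroxylase expressed in brain, had 3.23 and 2.56 at a peak over its start that also touches the noncoding 4930534D22Rik. Cyp2r1, the vitamin D hydroxylase, had 1.75 and 1.90, and Cyp4x1, a P450 known from brain, had 1.35 and 1.5 at a peak shared with its antisense neighbour Cyp4x1os. Cyp4v3, an ocular fatty acid hydroxylase, was weaker at 0.929 and 0.704. Cyp2w1 was counted through a peak of 1.90 in each library that lies 2.81 and 2.79 kb into the gene, near an internal start. The strongest peak in the window of Cyp2w1 lay beyond its 3' end, 11.7 kb from the 5' end, at 3.45 and 4.82.

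Of the 8 Cyp2j genes, whose products epoxidise fatty acids, Cyp2j6 had 0.768 and 0.768 and Cyp2j9 had 0.701 and 0.778. With the broader list 4 of the 8 had a promoter peak, Cyp2j13 (0.417 and 0.389) and Cyp2j12 (0.313 and 0.306) being the others. Another 2 genes had a promoter peak in 1 library only: Cyp2d22 at 0.957 in replicate 1, with 0.759 in replicate 2's broader list, and Cyp2s1 at 0.574 in replicate 2, with 0.493 in replicate 1's broader list. Both genes had a broader-list peak in each library and lacked a stricter-list one in 1 of them. The Cyp2d22 peak of replicate 1 lay in an intron, 3.38 kb into the gene. Its centre was 978 bp upstream of the nearest annotated start, and it covered no start. The peaks of Cyp2t4, 2 in replicate 1 and 4 in replicate 2, all lie at starts of Egln2, and those of Cyp2ab1 at starts of Parl. Cyp3a13 and Cyp2b19 each had 1 shared peak beyond the 3' end, at 0.616 and 0.5 for Cyp3a13 and at 0.853 and 0.667 for Cyp2b19.

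CYP4F enzymes hydroxylate leukotrienes and other fatty acids. All 9 Cyp4f genes had at least 1 stricter-list peak over the gene and flanks in both libraries, and 4 had a promoter peak. Cyp4f13 had 2.58 and 2.83, Cyp4f16 had 1.24 and 1.38, and Cyp4f15 had 0.616 and 0.833, each at a peak over or next to its 5' end with the same edges in both libraries. Cyp4f37 had 2.29 and 2.87, but 13.9 kb into its 14.9-kb gene, 539 bp past an internal transcript start. Peaks credited to Cyp4f40 in both libraries are that of Cyp4f15, and those of Cyp4f17 include that of Cyp4f16, since the windows of neighbours overlap.

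The 3' ends of Cyp4f genes also carried peaks, a pattern picked out after the values had been seen. A stricter-list peak touched 1 kb on either side of the 3' end in both libraries in 4 of 9 Cyp4f genes, in 0 of the 91 other P450 genes and in 5.45% of all autosomal protein-coding genes. In Cyp4f16 it was centred 507 bp before the 3' end in both libraries, at 2.09 and 2.12, in annotated UTR. Cyp4f18, which lies apart on chromosome 8, had it 39 and 109 bp before the end, at 1.55 and 1.54. In Cyp4f37 the peak already described lay 943 bp before the end, and in Cyp4f13 a weaker one, at 0.967 and 0.852, lay 189 and 197 bp before it. Cyp4f17 fell just outside the distance, with a peak 1.18 kb before its end at 1.79 and 2.32, and Cyp4f14 had one in replicate 2 alone, 331 bp before its end. Cyp4f39 had one past its end, at 1.51 kb and in replicate 1 alone, and Cyp4f15 and Cyp4f40 had none within 2 kb of the 3' end.

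Promoters of 3 Cyp4f genes are given to set side by side 2 that had a peak at the 5' end and 1, that of Cyp4f37, that had none there. Capitals mark CCAAT and GGGCGG on either strand in chr17:32947312-32947611 (minus strand), chr17:32536307-32536606 (plus) and chr17:32621069-32621368 (plus), all RefSeq, GRCm38.p6.
Cyp4f13 promoter: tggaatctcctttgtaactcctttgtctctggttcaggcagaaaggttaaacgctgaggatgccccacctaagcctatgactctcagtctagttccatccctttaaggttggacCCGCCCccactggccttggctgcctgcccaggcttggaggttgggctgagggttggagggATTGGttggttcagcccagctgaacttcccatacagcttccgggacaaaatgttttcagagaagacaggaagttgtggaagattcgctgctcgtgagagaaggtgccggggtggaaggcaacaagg
Cyp4f16 promoter: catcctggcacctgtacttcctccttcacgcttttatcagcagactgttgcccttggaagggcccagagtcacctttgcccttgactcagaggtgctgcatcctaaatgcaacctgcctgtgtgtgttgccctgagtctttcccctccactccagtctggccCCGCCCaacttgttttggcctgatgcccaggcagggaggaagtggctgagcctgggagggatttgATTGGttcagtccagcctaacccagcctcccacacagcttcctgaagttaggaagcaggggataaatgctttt
Cyp4f37 promoter: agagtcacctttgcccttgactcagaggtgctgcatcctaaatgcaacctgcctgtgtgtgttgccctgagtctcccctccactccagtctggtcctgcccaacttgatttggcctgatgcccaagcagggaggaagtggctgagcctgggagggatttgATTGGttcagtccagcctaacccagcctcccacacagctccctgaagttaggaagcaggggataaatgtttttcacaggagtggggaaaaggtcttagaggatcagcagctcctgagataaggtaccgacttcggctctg
Cyp4f13 and Cyp4f16 each hold 1 match to both motifs, and Cyp4f37 holds the CCAAT box alone. Aligned end to end at their annotated 5' ends, the 300-base promoters of Cyp4f16 and Cyp4f37 were 79.3% identical, the highest of 28 pairs among 8 Cyp4f genes (median 59.5%), although only Cyp4f16 had a peak at its 5' end in any list. For both, 73.7% of 32-base words in the promoter window were unique in the genome, so reads from the 2 genes could be hard to place, and the part of this in the difference was not tested.

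Long arrays of most other subfamilies held few peaks or none. The runs given here, with their ends, were picked out after the values had been seen. The run from Cyp2c55 to Cyp2c70 (chr19:39007019-40187333, 14 genes and no other protein-coding gene) spans 1180 kb and held no peak of either list and no footprint in either library; the table of false discovery rates lists 0 and 5 intervals in it. It lies inside a stretch of 1243 kb without any broader-list peak of either library, which ranks 19 in length among 82989 such gaps on the autosomes, whose median is 9.74 kb. Cyp2c genes encode the main drug- and arachidonate-oxidising P450s of liver. The 8 genes from Cyp3a57 to Cyp3a59 (768 kb) held no stricter-list peak and 1 broader-list peak, in replicate 1. The 8 Cyp4a genes, fatty acid hydroxylases of liver and kidney, spanned 380 kb (Cyp4a29 to Cyp4a32) with no stricter-list peak and 1 broader-list peak in each library. From Cyp2b10 to Cyp2a12, 10 P450 genes with 5 other protein-coding genes among them held 1 stricter-list peak in each library over 1140 kb. From Cyp2d11 to Cyp2d26, 7 genes over 405 kb held 2 and 1. With the neighbouring Cyp2d22 added, all 8 Cyp2d genes over 424 kb held 3 and 1. By contrast the 495-kb run from Cyp4f39 to Cyp4f13, 8 P450 genes with 4 zinc finger genes among them, held 12 and 13. Not all of these lie near Cyp4f genes. Peaks of replicate 1 at 336, 357, 377 and 439 kb from the start of the run lay outside every Cyp4f gene and its 10-kb flanks. Their strengths ran from 0.616 to 2.44, and replicate 2 had peaks at the same places, at 0.657 to 1.79. Peaks of Cyp4f genes reached higher values, 2.58 for Cyp4f13 in replicate 1 and 2.87 for Cyp4f37 in replicate 2. The 637-kb run of 8 Cyp2j genes lay in between, with 5 and 5. These counts are not scaled by length.

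**Figure D4:**
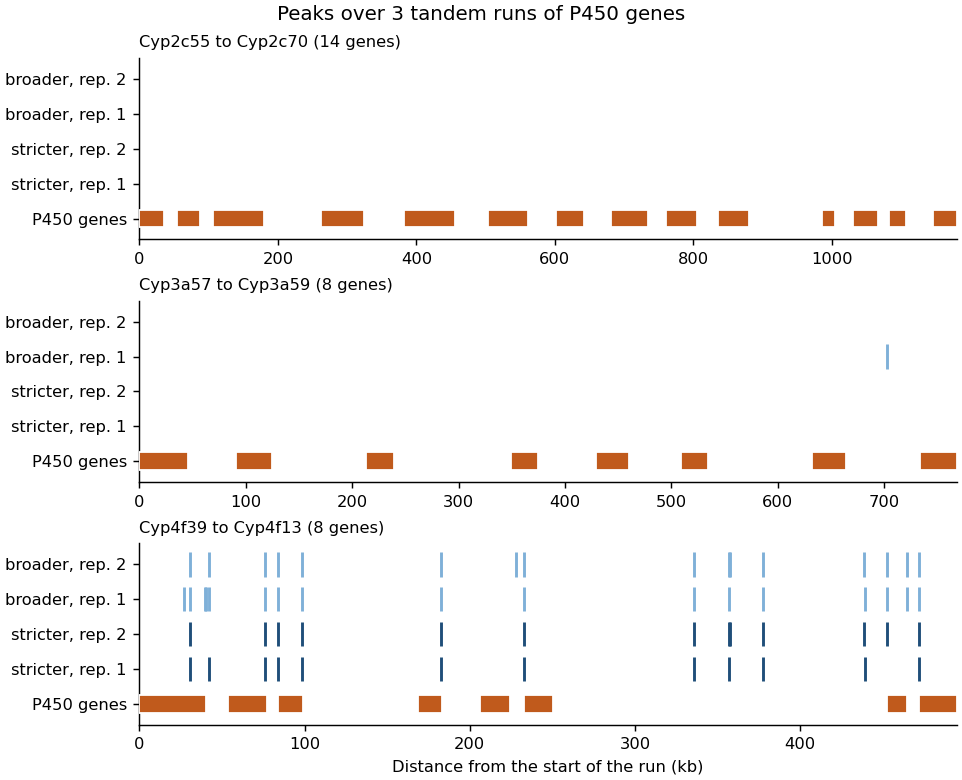
P450 genes (orange bars) and peaks (vertical ticks; dark for the stricter list, light for the broader list, replicates 1 and 2 in separate rows) along 3 tandem runs, by distance from the start of the run (x axis, kb). The Cyp2c run is empty, the Cyp3a run has 1 broader-list peak and many peaks of the Cyp4f run line up between the libraries.

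Close copies limit what these files can show of the arrays. Among members whose promoter window had at least 90% of its 32-base words unique in the reference, 19 of 56 (33.9%) had a promoter peak, and 18 had no peak of any list over the gene and flanks. Below 90%, 2 of 44 (4.55%) had one and 36 had no peak of any list. Within families 2 to 4 the counts were 9 of 38 (23.7%) and 2 of 40 (5%), and in families 7 and above 8 of 15 at or above 90%. Uniqueness was measured within 1 kb of each gene's own 5' end, whereas the peak could lie at any annotated start. The counted peaks of Cyp4f37, below 90%, and of Cyp17a1, Cyp19a1, Cyp2w1 and Cyp1a1, above it, lay outside that window. In members of low uniqueness, a lack of accessible sites and a lack of uniquely placed reads cannot be told apart with these files. How the authors treated reads that map to several places is not given in the sources used here.

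As background, CpG-rich promoters are common among widely expressed genes. Counting CpG in the 300 bases around each 5' end (250 before to 50 after), 9 of 100 P450 promoters were CpG-rich (observed over expected ratio of at least 0.6 and GC content of at least 50%), against 42.5% of all genes, and the median ratio was 0.154, against 0.540. Of the 9, 7 had a promoter peak (87.5% of all CpG-rich genes did): Cyp46a1, Cyp20a1, Cyp1b1, Cyp2u1, Cyp51, Cyp2r1 and Cyp4v3. The 2 without were Cyp26a1 and Cyp24a1, which degrade retinoic acid and vitamin D. Of the 91 genes with CpG-poor promoters, 14 had a promoter peak, beside 32.8% of all CpG-poor genes. CpG was counted at each gene's own 5' end, whereas the peak could lie at any annotated start. Among the 14, the peaks of Cyp4f37, Cyp17a1, Cyp19a1, Cyp2w1 and Cyp1a1 lay more than 1 kb from the own 5' end. Families 2 to 4 had 3 CpG-rich promoters, all with a peak, and 8 peaks among 75 CpG-poor ones, and families 7 and above had 3 of 5 and 5 of 14. Cyp2u1 sat on the line, at a ratio of 0.6, and Cyp39a1 missed it by its GC content of 48.7%.

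**Figure D5:**
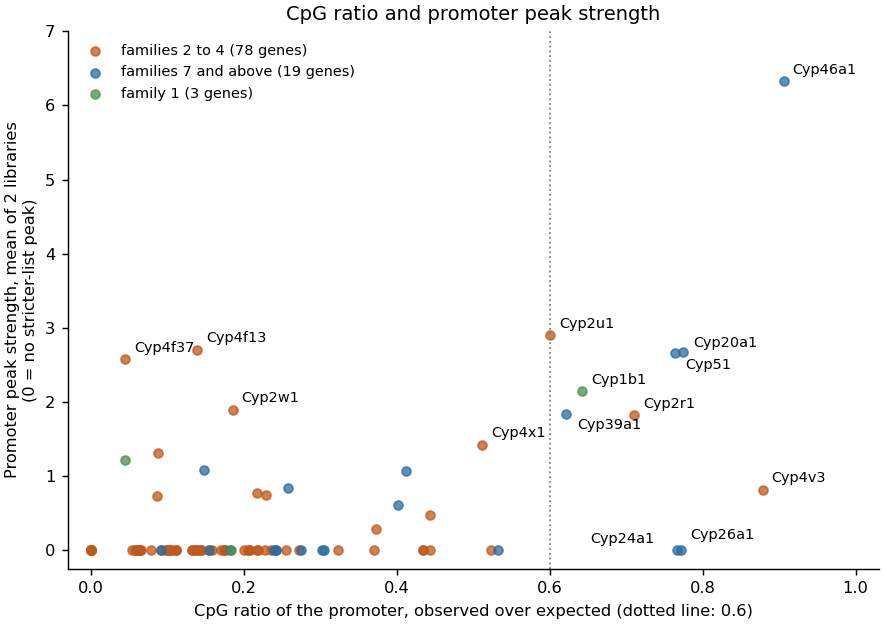
CpG ratio of the 300-base promoter (x axis) and mean promoter peak strength over 2 libraries (y axis, deposited signal value, 0 where no stricter-list peak) for all 100 P450 genes, coloured by family group. The ratio is taken at each gene's own 5' end, the strength at any of its annotated starts. Cyp46a1 is highest on both axes, Cyp26a1 and Cyp24a1 lie at 0 strength despite a high ratio, and most genes of families 2 to 4 sit at low ratio and 0.

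The TATA box, the GC box and the CCAAT box are common core promoter motifs. TATAAA, on either strand, occurred in 33 of the 79 members without a promoter peak and in 0 of the 21 with one, beside 20.1% and 6.93% of all genes without and with one. These letters were sought at each gene's own 5' end, where 16 of the 21 had their peak; in the peak windows of the 21, Cyp2j9 held 3 matches. GGGCGG occurred in 12 of the 21 and 7 of the 79, beside 60.8% of all genes with a promoter peak and 21.9% without. CCAAT was found in 50 of the 100 members and 38.6% of all promoters. CAAAGTCCA, a form of the element bound by the liver factor HNF4A, occurred in 11 members, all without a peak (6 Cyp2c, 4 Cyp3a and Cyp8b1), and in 0.688% of all promoters without one; members of an array share much of their sequence, so these are not separate cases. The AP-1 letters TGANTCA occurred in 8 members (6.88% of all promoters), 4 of the 21 with a promoter peak and 4 of the 79 without. The E-box CACGTG occurred in Cyp2j6 and Cyp4v3 (7.82% of all promoters), and the ETS letters CCGGAAG in Cyp4f13 and Cyp2t4 (11.03% of all promoters). The promoter of Cyp3a11, a main P450 of mouse liver that holds the HNF4A letters, stands for the arrays without peaks, at chr5:145879805-145880104 (minus strand), with its 2 CG dinucleotides in capitals.
Cyp3a11 promoter: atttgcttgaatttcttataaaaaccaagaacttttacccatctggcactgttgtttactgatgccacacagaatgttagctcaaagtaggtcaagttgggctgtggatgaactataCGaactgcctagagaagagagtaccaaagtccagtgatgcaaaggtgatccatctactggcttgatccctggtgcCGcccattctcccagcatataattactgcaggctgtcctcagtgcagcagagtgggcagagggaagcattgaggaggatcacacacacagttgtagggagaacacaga
The promoter of Cyp46a1 has 31 such dinucleotides in the same length. RefSeq starts of the printed promoters lie 1 to 110 bases from the 5' ends used for the counts, so motif and CG numbers can differ between them.

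In the windows of all members, overlapping ones joined, replicates 1 and 2 held 62 and 74 different stricter-list peaks, and 54 of each overlapped one of the other library. Those away from any annotated start numbered 20 and 25. Footprints were present in promoter windows of 24 members in both libraries. The share over all genes was not computed, so this count cannot be called low or high.

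Genes that supply, feed or respond to P450s were counted in the same way, beside the 56.0% of all genes. Of the genes for redox partners and heme metabolism, 9 of 9 matched on autosomes (11 listed) had such a peak in each library. They ran from Fdx1 (0.900 and 1.19) to Alas1 (4.17 and 4.25). All 20 genes of cholesterol synthesis had one, from Tm7sf2 (2.15 and 1.54) to Scap (5.77 and 5.32), with medians of 4.54 and 3.21. Cyp51, which belongs to the same pathway, lay below those medians in both libraries.

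Oxysterol targets and bile acid genes had one in 10 of 16, led by Nr1h3 (4.20 and 4.10), an oxysterol receptor. In that list, 6 tied at 0, among them the bile acid receptor Nr1h4. Retinoid genes had one in 8 of 18, led by Rxrb (5.20 and 3.97), with 7 at 0 including Aldh1a1. Xenobiotic sensors and conjugation genes had one in 10 of 22, led by Gstm1 (3.45 and 2.07); Nr1i2 and Nr1i3, the PXR and CAR receptors that induce Cyp3a and Cyp2b in liver, were among 11 at 0. Steroid hormone genes had one in 4 of 12 (13 listed), led by Srd5a1 (6.51 and 4.54), with 6 at 0 including Tspo. Of 5 vitamin D genes only Dhcr7 had one in both libraries (4.39 and 3.26), which is also counted in cholesterol synthesis, and Vdr, the receptor, was among 3 at 0. A value of 0 here means no stricter-list promoter peak. With the broader list the counts were 11 of 18 retinoid, 11 of 22 xenobiotic, 7 of 12 steroid hormone and 3 of 5 vitamin D genes. The other lists kept their counts. Among the genes at 0, broader-list strengths were 0.531 and 0.546 for Tspo and 0.436 and 0.444 for Vdr. For Stard3, also at 0 among the steroid hormone genes, they were 1.56 and 1.74, so a 0 did not always go with a weak peak.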

How the data were processed

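DNase-seq peak lists of 2 libraries of 1 group were used. The peak lists give a signal value (strength), deposited by the authors, per peak. Its normalization, the aligner and the peak caller are, however, not given in the sources used here. Stricter and broader lists were told apart by their peak number and by a q-value table (false discovery rates) deposited by the authors: every stricter-list peak held an interval of at most 0.000999 and every broader-list peak one of at most 0.0499. Coordinates are mm10, counted from 1, with GENCODE M21.

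Promoter peaks needed 1 shared bp within 1000 bp of a transcript start; peaks in the gene plus 10-kb flanks were counted by midpoint. Promoter statistics used 300 bases at each gene's 5' end in GRCm38.p6; printed promoters came from RefSeq, which matched 77 of 100 symbols. Of 18 motifs searched, those with a match in a member's promoter are reported. Likeness used Biopython 1.88 global alignment. Python 3.11.15, pandas 2.3.3, pysam 0.24.0 and samtools 1.23.1 were used, and counting steps were tested on simulated data. With 2 libraries and 1 group no test was possible; SDs are over libraries. No alleles were separated in these hybrids.

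Members and lists were chosen with earlier results of these data known. Named were members with a promoter peak in at least 1 library, Cyp46a1, Cyp51, Cyp7b1 and Cyp26b1, the 5 others with most peaks over the gene and flanks where fewest (10 tied for the last places, all named), and the strongest and weakest gene of each pathway list; others are named to account for all members. The count over the excitatory neuron markers is not reported here.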

Additional observations from a re-analysis of the deposited data

How the results depend on the processing

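Restricting each library to its strongest 50% of peaks lowered the count of P450 genes with a promoter peak in both libraries from 21 to 12, in families 2 to 4 from 11 to 7, in families 7 and above from 8 to 4 and in family 1 from 2 to 1, while the share of all genes fell to 48.4%. Family 1 gave 0 with a 500-bp promoter and 1 with the gene's own 5' end alone or with the peak midpoint inside the promoter; the peaks of Cyp1a1 and Cyp1b1 lie far from the start. Genes with a peak over the gene and flanks in both libraries, 35, became 19 over the gene body alone, 59 with 50-kb flanks, 20 with the strongest 50% of peaks and 14 without peaks near any start, beside 45.3%, 84.0%, 62.2% and 31.1% of all genes. From each library alone the counts were 22 to 22 for promoter peaks, 12 to 12 in families 2 to 4, 8 to 8 in families 7 and above, 2 to 2 in family 1 and 38 to 39 for peaks over the gene and flanks. Promoter strength moved beyond 1 SD only for Cyp4x1, to 1.01 from 1.42, when the peak nearest the 5' end was taken; the other 20 genes stayed within it, as did all 21 with the broader list. Leaving out a library cannot move a mean of 2 by 1 SD, so it says nothing about the stability of strength. No paired analysis was possible because there is 1 group. Depth is unknown, so weak sites and sites in few cells may be missed, and the SD over 2 libraries is a rough one.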
